A study of Mus musculus with 9 samples.

Results

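Respiratory complex I genes were followed in the apical ventricle of newborn mice. The genes were taken by name: every symbol beginning with Nduf and then a, b, c, s, v, ab or af and a number, pseudogenes excluded, which gave 45 of the 14479 genes in the deposited expression matrix. Complex I, or NADH:ubiquinone oxidoreductase, is the entry point of electrons from NADH into the respiratory chain of the inner mitochondrial membrane. Its matrix arm binds NADH and passes electrons along iron-sulfur clusters to ubiquinone, and its membrane arm pumps protons. Around a catalytic core, part of it encoded by mitochondrial DNA, sit accessory subunits, and dedicated assembly factors build the complex without staying in it. Heart muscle is rich in mitochondria and changes over to oxidative metabolism after birth.

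The mice were of the CD-1 strain and had surgery on postnatal day 1. In 3 libraries the ventricular apex had been resected and the left vagus nerve, a parasympathetic nerve of the heart, had been cut. In 3 libraries the apex had been resected alone, and 3 libraries came from sham-operated pups. Hearts were collected on postnatal day 2, so all groups were operated, and total RNA of the lowest part of the ventricles was sequenced. There was no group with vagotomy and no resection. The labels do not say whether libraries came from separate pups, so p-values measure only the spread between these samples, which may be technical. Expression was given as FPKM, which is scaled to transcript length and library size, and the depth behind each value is unknown.

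The 9 libraries had a median of 7.52 to 8.29 FPKM over all genes and correlated pairwise, across genes, with r between 0.746 and 0.951. Of the 12 cardiomyocyte markers, 10 were present in every library, but Actc1 and Myh6 were listed at 0 in all 3 vagotomy libraries and at 3600 to 7955 and 1326 to 3718 FPKM in the other 6. The authors' deposited table of vagotomy over resection marks both genes HIDATA, Cufflinks' status for a locus with too many fragments to quantify, so these 0 values are failed estimates and not levels. Some libraries stood apart for the complex I genes. Vagotomy replicate 3 was the lowest of the 9 libraries for 15 of the 45 genes, and resection replicate 2 was the lowest for 23. All 45 genes passed the filter of a mean of at least 1 FPKM and were tested. Their lowest value in any library was 2.97 FPKM, and their means over the 9 libraries ran between 5.80 FPKM for Ndufaf7 and 2472 FPKM for Ndufa4. Of the 45, 13 share a deposited locus with another gene, and 10 of those share it with a gene of the matrix. Their values are less certain. Of these, Ndufa10 lies with a microRNA gene, Ndufb11 with Rbm10 and Ndufb8 with Sec31b and Gm20538, and the other 10 are named with their neighbours below. The strandedness of the libraries is not given in the sources used here, so reads of overlapping genes on opposite strands cannot be told apart.

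After resection with vagotomy, complex I genes moved in both directions relative to sham. Ndufb3, an accessory subunit of the membrane arm, rose by 2.06 on the log2 scale, and the assembly factor gene Ndufaf3 rose by 1.24. Ndufb2, Ndufb5 and Ndufb6 of the same arm fell, as did the accessory subunit genes Ndufa1 and Ndufc1, the catalytic subunit genes Ndufs3 and Ndufs8, and the assembly factor genes Ndufaf4 and Ndufaf6. These 11 genes are 24.4% of the 45, and 10.1% of all 13249 tested genes passed the same test. Values were tested as log2(FPKM + 1) by limma, two-sided, with Benjamini-Hochberg adjustment over all tested genes and a threshold of 0.05. The pseudocount of 1 understates changes of low values. The 9 genes that fell are 20.0% of the 45, against 4.26% of all tested genes, and the 2 that rose are 4.44%, against 5.81%. In whole tissue, fewer cells of a type and less RNA per cell cannot be told apart.

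This count rests on single libraries. It was 1 gene, Ndufb3, without sham replicate 2 and 1 without sham replicate 3, where calls among all tested genes were also down to 100 and 119, against 1334 with all libraries. It was 4 without vagotomy replicate 1, 4 without vagotomy replicate 3, 7 without vagotomy replicate 2 and 7 without resection replicate 3. All tested genes gave 598, 533, 640 and 1088 calls there, in the same order. The 4 were Ndufb2, Ndufb3, Ndufb6 and Ndufs3 in both cases. Ndufb3 passed in every one of the 22 alternatives, both against sham and against resection alone. The alternative that leaves out members at shared loci refits nothing, so a gene kept in it could only repeat its result of the main fit. The smallest p that exact permutation of these group labels allows is 0.1, so the calls depend on the variance that limma shares across genes.

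**Figure D1:**
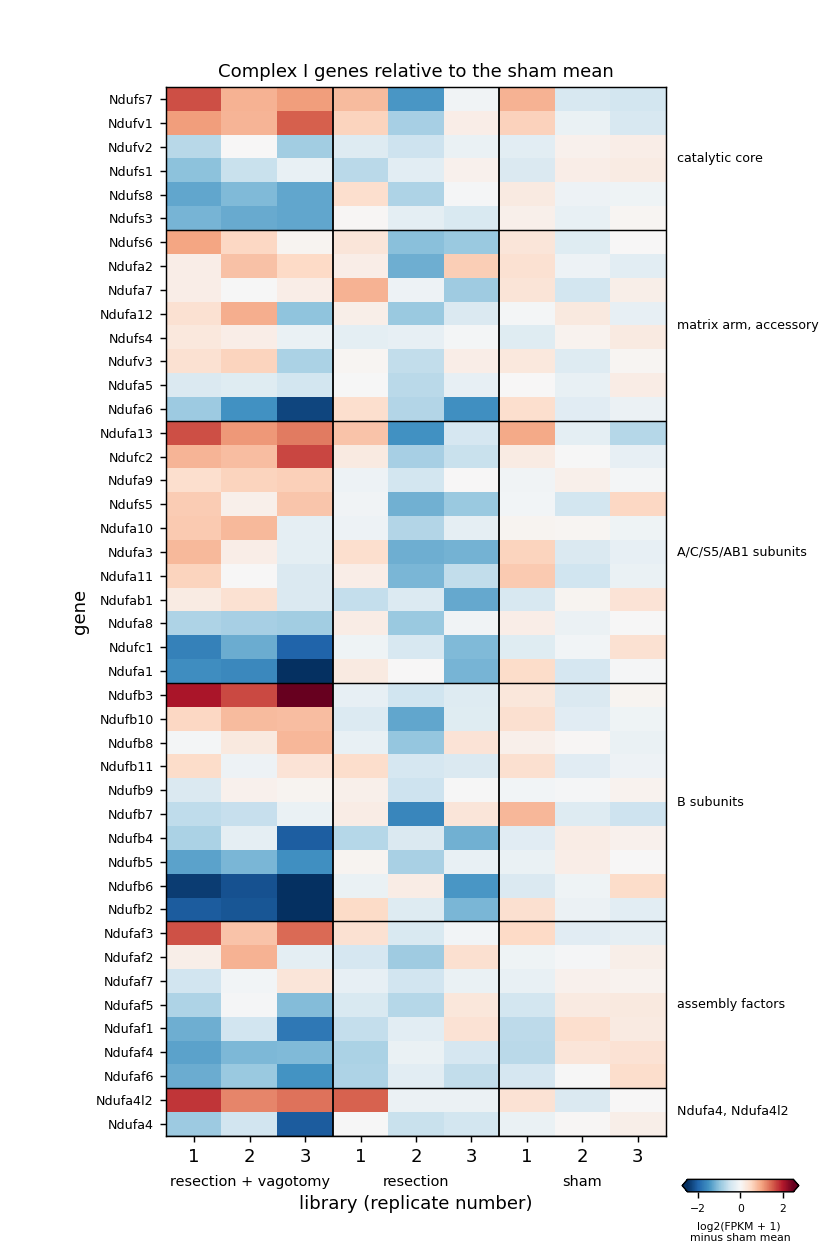
The heat map shows 44 of the 45 genes (rows, grouped by role) in each of the 9 libraries (columns, grouped by surgery) as log2(FPKM + 1) minus the sham mean, with colours held at the ends of the scale. Ndufb3 is high and Ndufb2 and Ndufb6 are low in all 3 vagotomy libraries, and resection replicate 2 is below the sham mean for most genes.

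Taken as a set, the 45 genes did not shift one way after vagotomy. The median log2 change against sham was 0.07, with 24 genes above 0 and 21 below (46.7%, against 48.2% of all tested genes), and the median over all tested genes was 0.03. The sign of this median was not fixed. It was -0.05, -0.08 and -0.01 without sham replicates 1, 2 and 3, -0.04 and -0.09 without vagotomy replicates 1 and 2, and -0.01 with upper-quartile scaling. The changes were wide. Their interquartile range was 1.64 on the log2 scale over the 45 genes, 0.95 over all tested genes and 0.99 over the 8726 tested genes at least as abundant as the lowest of the 45. A change beyond 1 on the log2 scale in either direction was seen in 20 of the 45 genes (44.4%), against 18.1% of all tested genes. For 23 of the 45 (51.1%) the 3 vagotomy libraries did not overlap the 3 sham libraries, against 36.7% of all tested genes.

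**Figure D2:**
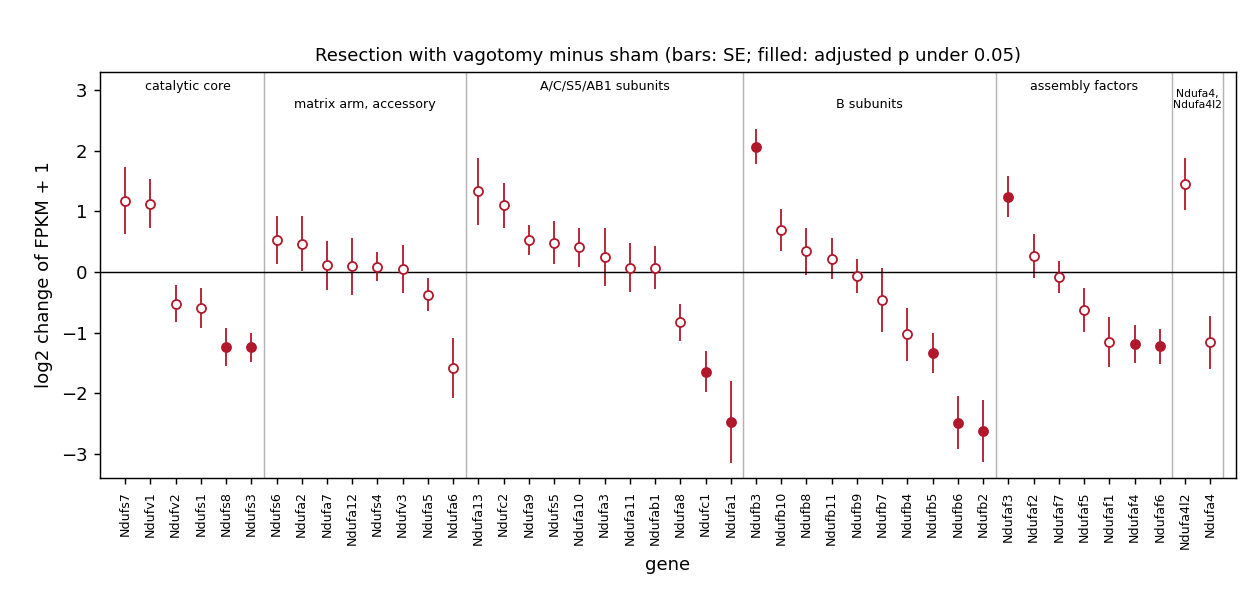
Points give the log2 change of FPKM + 1 in resection with vagotomy minus sham for 44 of the 45 genes, grouped by role. Bars are standard errors and filled points passed an adjusted p of 0.05. Every role group holds changes on both sides of 0, and the 11 filled points include 9 below 0.

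**Figure D3:**
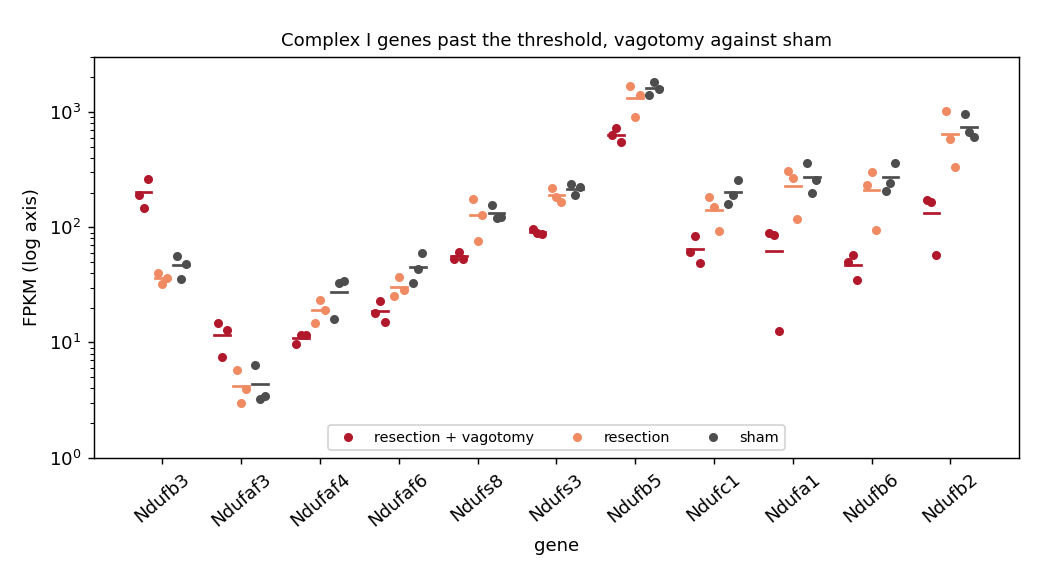
Points give the FPKM (log axis) of each library for the 11 genes that passed in resection with vagotomy against sham, with the vagotomy, resection and sham groups side by side and a line at each group's mean (n = 3). The vagotomy libraries lie above all others for Ndufb3 and Ndufaf3 and below all others for the other 9 genes.

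Of the nuclear-encoded catalytic core subunits, 7 were measured. Of these, 2 fell against sham after resection with vagotomy, 0 rose, and the median change was -0.52. Ndufs3 (chr2:90894634-90904827 in GRCm38, minus strand), a core subunit of the matrix arm, had 96.3, 89.4 and 87.0 FPKM in the vagotomy libraries, 220, 184 and 166 FPKM after resection alone, and 238, 191 and 223 FPKM in sham. The vagotomy libraries lay below all 6 others. The log2 change against sham was -1.24 (SE 0.24, limma adjusted p = 0.0174), and against resection alone it was -1.05 (SE 0.24, adjusted p = 0.0456). Its deposited locus also holds Kbtbd4, Ptpmt1 and Gm17661, which did not pass against sham (log2 changes -0.96, 0.13 and 1.43). Ndufs8 (chr19:3908863-3912774, minus strand), which carries iron-sulfur clusters next to the quinone site, had 53.1, 61.0 and 53.2 FPKM with vagotomy, 176, 76.5 and 129 FPKM with resection alone and 155, 121 and 122 FPKM in sham. All 3 vagotomy values were below the rest, with a log2 change against sham of -1.23 (SE 0.32, adjusted p = 0.0377).

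Ndufv1, Ndufs7, Ndufv2 and Ndufs1 did not pass in any comparison of the main fit, without the replicate block and other alternatives described below. Ndufv1, which binds NADH and its flavin cofactor, had 327, 285 and 449 FPKM with vagotomy, 233, 88.6 and 178 FPKM with resection alone and 235, 140 and 120 FPKM in sham. Its vagotomy libraries were above the 6 others, and the log2 change against sham was 1.13 (SE 0.41, adjusted p = 0.0959). Ndufs7, which holds the last iron-sulfur cluster before ubiquinone, had 326, 194 and 217 FPKM with vagotomy, 183, 37.8 and 98.8 FPKM with resection alone and 193, 79.4 and 76.2 FPKM in sham. Here too the vagotomy libraries were the highest, though the margin over sham replicate 1 was narrow (log2 change 1.18, SE 0.55, adjusted p = 0.18). Against resection alone the log2 change of Ndufs7 was 1.43 (adjusted p = 0.15, and 0.0388 with the replicate number as a block), and 0.83 without resection replicate 2. Ndufv2, with an iron-sulfur cluster near the NADH site, had 167, 270 and 146 FPKM with vagotomy, 215, 186 and 240 FPKM with resection alone and 224, 288 and 301 FPKM in sham, and the groups overlapped. Ndufs1, the largest core subunit, had 128, 178 and 231 FPKM with vagotomy, 164, 218 and 282 FPKM with resection alone and 203, 294 and 304 FPKM in sham, again with overlap. Ndufs1 shares its deposited locus with Ino80d and 4 other genes, and Ndufv2 shares its with Gm23264.

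Of the 8 accessory subunits of the matrix arm, 0 passed in any comparison of the main fit, without the block. Their median change in vagotomy against sham was 0.09, between -1.58 for Ndufa6 and 0.52 for Ndufs6. Ndufa2 was the most abundant on the FPKM scale, with 522, 776 and 654 FPKM with vagotomy, 522, 199 and 709 FPKM with resection alone and 606, 427 and 388 FPKM in sham. It shares its locus with Tmco6. Ndufs4, whose human counterpart is mutated in Leigh syndrome, was the least abundant. It had 36.2, 33.7 and 26.5 FPKM with vagotomy, 24.97, 25.7 and 28.98 FPKM with resection alone and 23.9, 31.9 and 34.98 FPKM in sham. The groups overlapped for both genes.

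A further 11 accessory subunits carry A, C, S5 or AB1 names and mostly belong to the membrane arm. Against sham 2 of them fell after resection with vagotomy, 0 rose, and the median was 0.25. Ndufc1 (chr3:51404677-51408988, minus strand) had 61.3, 84.0 and 49.0 FPKM with vagotomy, 184, 152 and 92.0 FPKM with resection alone and 161, 190 and 259 FPKM in sham. The vagotomy libraries lay below all others (log2 change against sham -1.64, SE 0.34, adjusted p = 0.02). Ndufa1 (chrX:37187588-37191163, minus strand) had 89.7, 86.2 and 12.6 FPKM with vagotomy, 307, 266 and 118 FPKM with resection alone and 362, 197 and 257 FPKM in sham. Vagotomy replicate 3 was far below the other vagotomy libraries, and all 3 were below the rest (log2 change against sham -2.48, SE 0.68, adjusted p = 0.0451). The call was lost in 9 of the 22 alternatives, and without vagotomy replicate 3 the log2 change was -1.57 (adjusted p = 0.078).

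Others of this group stood higher without passing. Ndufc2, a partner of Ndufc1 in the membrane arm and the most abundant of the group, had 902, 848 and 1579 FPKM with vagotomy, 585, 281 and 337 FPKM with resection alone and 576, 496 and 431 FPKM in sham. The vagotomy libraries cleared both other groups, and the adjusted p was 0.0577 against resection alone, or 0.0416 there with the block, and 0.0834 against sham (log2 changes 1.48 and 1.10). Gm16053 shares its locus. Ndufa13, also known as GRIM19, had 192, 134 and 155 FPKM with vagotomy, 103, 21.3 and 46.8 FPKM with resection alone and 122, 52.8 and 37.9 FPKM in sham (chosen after its values were seen). It was highest with vagotomy but did not pass (adjusted p = 0.0997 against resection alone, or 0.0309 there with the block, and 0.137 against sham), and Tssk6 and Yjefn3 lie at its locus. Ndufa11 was the least abundant, with 21.7, 14.4 and 11.01 FPKM with vagotomy, 16.1, 5.97 and 9.04 FPKM with resection alone and 23.3, 9.88 and 12.7 FPKM in sham, all groups overlapping.

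The B subunits, accessory proteins of the membrane arm, held the largest changes of the 45 genes against sham in both directions. Of 10 genes, 1 rose and 3 fell in vagotomy against sham, and the median was -0.26. Ndufb3 (chr1:58586384-58595964, plus strand) had 193, 148 and 262 FPKM with vagotomy, 39.7, 32.4 and 36.5 FPKM with resection alone and 56.5, 35.7 and 48.4 FPKM in sham. Every vagotomy library was well above every other library. The log2 change was 2.06 against sham (SE 0.29, adjusted p = 0.00568) and 2.41 against resection alone (SE 0.29, adjusted p = 0.00501). No other gene is annotated over Ndufb3 in GENCODE M21.

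Ndufb6 (chr4:40270591-40279421, minus strand) had 49.8, 57.8 and 34.7 FPKM with vagotomy, 234, 301 and 94.9 FPKM with resection alone and 206, 244 and 364 FPKM in sham. All vagotomy libraries were below the rest, with log2 changes of -2.48 against sham (SE 0.43, adjusted p = 0.0119) and -2.0 against resection alone (SE 0.43, adjusted p = 0.0378). Ndufb2 (chr6:39592574-39603382, plus strand) had 173, 166 and 57.2 FPKM with vagotomy, 1019, 584 and 332 FPKM with resection alone and 965, 666 and 614 FPKM in sham. Again the vagotomy libraries were the lowest, with log2 changes of -2.62 against sham (SE 0.51, adjusted p = 0.0166) and -2.29 against resection alone (SE 0.51, adjusted p = 0.0405). Ndufb5 (chr3:32736990-32751566, plus strand), the most abundant B subunit on the FPKM scale, had 634, 724 and 553 FPKM with vagotomy, 1682, 914 and 1404 FPKM with resection alone and 1422, 1810 and 1604 FPKM in sham. The vagotomy libraries lay below all others (log2 change against sham -1.34, SE 0.33, adjusted p = 0.0341).

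Each of these 3 genes shares its deposited locus with others, and none of the neighbours in the matrix passed against sham. Ndufb6 lies with Topors and 2010003O02Rik (log2 changes -0.24 and 0.10). Ndufb2 lies with Braf, Adck2 and Fth-ps2 (-0.13, 0.43 and 1.05), and with Gm16272, which is not in the matrix and was not tested. In GENCODE M21, Gm42420 also overlaps Ndufb2, on the same strand. Ndufb5 lies with Actl6a and Mrpl47 (-0.23 and -0.71). With all members at shared loci left out, 7 of 32 genes passed in vagotomy against sham, 2 higher and 5 lower. Over all tested genes 10.1% passed, 5.81% higher and 4.26% lower. Ndufb4, the least abundant B subunit, had 40.05, 59.2 and 15.8 FPKM with vagotomy, 41.96, 54.2 and 29.9 FPKM with resection alone and 56.7, 79.2 and 75.2 FPKM in sham. It did not pass in any comparison of the main fit.

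The bases just before the RefSeq start of 3 B subunit genes are shown because these were the B subunits that passed against both sham and resection alone, 1 higher and 2 lower. The sequences are the 250 bases before the start, 5′ to 3′ on the gene's strand, from RefSeq on GRCm38.p6, at chr1:58586147-58586396 for Ndufb3 (plus), chr4:40279422-40279671 for Ndufb6 (minus) and chr6:39592315-39592564 for Ndufb2 (plus). Capitals mark a match to a searched motif, here the ETS letters in Ndufb6, read on the opposite strand, and the ERR letters in Ndufb2. Ndufb3 has no match.
Ndufb3: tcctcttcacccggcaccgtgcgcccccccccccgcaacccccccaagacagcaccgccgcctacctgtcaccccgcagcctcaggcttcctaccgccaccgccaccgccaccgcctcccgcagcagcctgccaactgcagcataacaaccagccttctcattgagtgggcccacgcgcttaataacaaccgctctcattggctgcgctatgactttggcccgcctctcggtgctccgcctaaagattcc
Ndufb6: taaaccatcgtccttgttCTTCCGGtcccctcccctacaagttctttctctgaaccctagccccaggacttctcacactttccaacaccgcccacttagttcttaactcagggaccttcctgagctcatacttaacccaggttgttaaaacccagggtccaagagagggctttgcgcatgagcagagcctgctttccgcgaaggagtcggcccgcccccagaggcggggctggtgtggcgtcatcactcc
Ndufb2: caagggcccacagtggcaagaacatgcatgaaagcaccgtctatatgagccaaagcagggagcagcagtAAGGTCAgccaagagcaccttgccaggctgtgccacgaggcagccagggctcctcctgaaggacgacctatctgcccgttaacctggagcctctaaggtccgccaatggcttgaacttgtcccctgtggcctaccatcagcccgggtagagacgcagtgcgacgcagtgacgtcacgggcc

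The motifs were searched on both strands in 300 bases around each start, 250 before and 50 after. RefSeq promoters were found for 39 of the 45 genes, giving 41 promoters, and were set beside all 32851 mouse promoters of that table. The letters GCATGCGC, bound by nuclear respiratory factor 1, were in 5 of the 41 promoters (12.2%) and in 2.71% of all. AAGATGGC, bound by YY1, was in 7 (17.1%), against 2.75% of all. CCGGAAG, the core of ETS factors such as GABP, was in 5 (12.2%), against 8.86%, and AAGGTCA, bound by oestrogen-related receptors, was in 3 (7.32%), against 4.72%. The match in Ndufb6 begins at position -232 from the start, that in Ndufb2 at -181, and Ndufs3 has an ETS match at -27. These are matches of letters, not measured binding.

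Of the 7 measured assembly factors, 1 rose and 2 fell in vagotomy against sham, with a median of -0.62 (Ndufaf8 was not analysed here). Ndufaf3 and Ndufaf4, whose products work together in assembling the quinone-binding part of the matrix arm, passed in opposite directions. Ndufaf3 (chr9:108565537-108567434, minus strand) had 14.7, 7.48 and 12.9 FPKM with vagotomy, 5.78, 2.97 and 3.93 FPKM with resection alone and 6.34, 3.26 and 3.44 FPKM in sham. The vagotomy libraries were above all others (log2 change against sham 1.24, SE 0.33, adjusted p = 0.043). Impdh2 overlaps it on the opposite strand. Ndufaf4 (chr4:24898083-24905001, plus strand) had 9.69, 11.5 and 11.6 FPKM with vagotomy, 14.7, 23.3 and 19.1 FPKM with resection alone and 15.99, 32.5 and 34.0 FPKM in sham. Its vagotomy libraries were below all others (log2 change against sham -1.19, SE 0.31, adjusted p = 0.041).

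Ndufaf6 (chr4:11051045-11076205, minus strand), the most abundant of the assembly factors, had 17.97, 22.8 and 15.04 FPKM with vagotomy, 25.4, 36.7 and 28.3 FPKM with resection alone and 32.7, 43.7 and 59.999 FPKM in sham. The vagotomy libraries were the lowest (log2 change against sham -1.22, SE 0.29, adjusted p = 0.03). Ndufaf7, the least abundant, had 4.25, 5.91 and 7.995 FPKM with vagotomy, 5.36, 4.20 and 5.47 FPKM with resection alone and 5.38, 6.86 and 6.72 FPKM in sham, and the groups overlapped. Of 7 measured assembly factors with other names (Acad9, Ecsit, Foxred1, Nubpl, Timmdc1, Tmem126b and Tmem186), 0 passed in any comparison. Their median in vagotomy against sham was -0.27, and the smallest p-values there belonged to Tmem126b (log2 change -1.24, adjusted p = 0.0942) and Foxred1 (-0.46, adjusted p = 0.244).

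Ndufa4 and Ndufa4l2 carry complex I names, but the Ndufa4 protein is now placed in cytochrome c oxidase, and its relative Ndufa4l2 is known as a gene induced by hypoxia. Ndufa4, the most abundant of the 45 genes, had 1721, 2305 and 760 FPKM with vagotomy, 3196, 2206 and 2341 FPKM with resection alone and 2865, 3274 and 3583 FPKM in sham. The vagotomy libraries were below sham but overlapped resection alone (log2 change against sham -1.16, SE 0.44, adjusted p = 0.11). Without vagotomy replicate 3, the lowest, the change was -0.70. Ndufa4l2 had 38.0, 25.5 and 28.2 FPKM with vagotomy, 30.7, 9.28 and 9.31 FPKM with resection alone and 13.6, 7.88 and 10.4 FPKM in sham. The vagotomy libraries were above sham (log2 change 1.45, SE 0.42, adjusted p = 0.0538), and neither gene passed in any comparison of the main fit. Against sham, Ndufa4l2 passed in 7 of the 21 alternatives that kept it, and Ndufa4 in 1 of 22. Against resection alone Ndufa4l2 passed in 1 and Ndufa4 in 0. Ndufa4l2 shares its locus with Shmt2.

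The comparison of resection with vagotomy against resection alone addresses what cutting the nerve adds. Here 4 of the 45 genes passed (8.89%), Ndufb3 higher and Ndufb2, Ndufb6 and Ndufs3 lower, against 3.52% of all tested genes, 1.97% higher and 1.55% lower. With the replicate number as a block, 13 genes passed, 8 higher and 5 lower. Calls among all 13249 tested genes also went up with the block, from 466 to 1277, 702 higher and 575 lower. The block added Ndufa13, Ndufaf3, Ndufb10, Ndufc2, Ndufs5, Ndufs6 and Ndufs7 among the higher and Ndufa1 and Ndufs8 among the lower, with limma adjusted p between 0.0174 for Ndufaf3 and 0.0491 for Ndufs8, against 0.0577 to 0.15 without it. The block was fitted over all 9 libraries, sham included, and rests on the numbers in the sample titles. The third resection and sham libraries carry other, unequal numbers in their descriptions. At an unadjusted p under 0.05 stood 23 of the 45 genes (51.1%), against 24.2% of all. Groups did not overlap for 18 genes (40%), against 26.2%. The median log2 change was 0.20, against 0.02 over all tested genes, and it was 0.10 without resection replicate 2. This comparison and that against sham share the vagotomy libraries.

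Without the block, the count of 4 also turned on single libraries. Without resection replicate 1 it was 7, of which 7 were higher and 0 lower, so Ndufb2, Ndufb6 and Ndufs3 no longer passed. Among all tested genes 374 were higher and 217 lower there. The count was 1, Ndufb3, without resection replicate 2, without any 1 sham library and without any 1 vagotomy library. Calls among all tested genes moved too, from 466 to 591 and 42 without resection replicates 1 and 2. They were 72 to 313 without a sham library and 68 to 166 without a vagotomy library. Leaving out a sham library does not alter the log2 changes of this comparison, only the shared variance. With members at shared loci left out, among them Ndufb2, Ndufb6 and Ndufs3, 1 of 32 genes passed, Ndufb3. Over all tested genes 3.52% passed (466 of 13249), so no excess remained. In the authors' deposited table for this comparison, made with Cuffdiff, 22 of the 45 genes (48.9%) had a q under 0.05, 11 higher and 11 lower, against 17.1% of the 14083 genes it tested, 8.52% higher and 8.56% lower. The authors' deposited table gave Ndufb3 group values of 200.01 FPKM with vagotomy and 36.1 FPKM with resection alone, a log2 ratio of 2.47. Among the 11 higher in the authors' deposited table were also Ndufv1, Ndufs7, Ndufa13, Ndufc2 and Ndufb10, and among the 11 lower were Ndufa1, Ndufb2, Ndufb5, Ndufb6, Ndufc1, Ndufs3 and Ndufs8.

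Resection alone was set against sham to see the response to loss of the apex. Of the 45 genes 0 passed by limma (background 0.294% of all tested genes), and 0 had an unadjusted p under 0.05, against 5.89% of all. Changes were small and mostly of 1 sign: 43 of the 45 genes had a log2 change below 0, against 51.4% of all tested genes, with a median of -0.31, against -0.01. Their interquartile range was 0.29, against 0.39 over all tested genes. The size of this shift depended on resection replicate 2. Without it, 31 of the 45 changes were below 0 and the median was -0.15, and without sham replicate 1 or resection replicate 3 there were 36 and 38 below 0.

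The smallest p-values of this comparison belonged to Ndufs5, Ndufab1, Ndufaf6, Ndufb10 and Ndufb4. Ndufs5 had 38.1, 26.6 and 39.7 FPKM with vagotomy, 22.7, 9.91 and 12.2 FPKM with resection alone and 23.2, 17.5 and 34.9 FPKM in sham (resection against sham -0.74, SE 0.35, limma adjusted p = 0.919). Ndufab1, the mitochondrial acyl carrier protein, had 539, 605 and 363 FPKM with vagotomy, 308, 370 and 192 FPKM with resection alone and 355, 487 and 589 FPKM in sham (resection against sham -0.74, SE 0.36, adjusted p = 0.926). Resection overlapped sham for both. Ndufb10 had 392, 478 and 468 FPKM with vagotomy, 217, 111 and 221 FPKM with resection alone and 362, 226 and 253 FPKM in sham. Its resection libraries were below the others (resection against sham -0.65, SE 0.34, adjusted p = 1). Groups did not overlap for 3 of the 45 genes (6.67%), Ndufa10, Ndufb4 and Ndufb10, all lower after resection, against 10.8% of all tested genes, 4.45% with resection lower. In the authors' deposited table Ndufb10 was the 1 gene of the 45 with a q under 0.05 (q = 0.022), lower after resection. That is 2.22%, against 6.12% of the 14011 genes tested in the authors' deposited table, 1.93% of them lower.

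Transcripts of the subunits encoded by mitochondrial DNA did not pass in any comparison. Of these, mt-Nd2, mt-Nd3, mt-Nd5 and mt-Nd6 were measured and mt-Nd1, mt-Nd4 and mt-Nd4l were not analysed here. Their summed level was 20752 to 60817 FPKM with vagotomy, 30268 to 47038 FPKM with resection alone and 28724 to 47707 FPKM in sham, and the range with vagotomy spanned the others. Of the 4, mt-Nd5 had 15189, 10310 and 3635 FPKM with vagotomy, 2452, 6346 and 6115 FPKM with resection alone and 4640, 5507 and 6972 FPKM in sham. Vagotomy replicate 3 was the lowest of the vagotomy libraries for all 4. The smallest p-values in vagotomy against sham were those of mt-Nd5 (log2 change 0.56, adjusted p = 0.563) and mt-Nd6 (-0.20, adjusted p = 0.787).

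Of 12 nuclear regulators of mitochondrial genes, among them the coactivator gene Ppargc1a and the transcription factor genes Nrf1, Gabpa, Esrra and Tfam, 1 passed. It passed in vagotomy against sham, where 10.1% of all tested genes passed. Yy1, a zinc finger factor, had 12.4, 15.8 and 13.1 FPKM with vagotomy, 27.5, 41.9 and 19.1 FPKM with resection alone and 27.3, 28.4 and 34.6 FPKM in sham. Its vagotomy libraries were below all others (log2 change against sham -1.08, adjusted p = 0.045). The call of Yy1 was not followed through the alternatives. Of the 7 genes with YY1 letters in the promoter, Ndufc1 fell in vagotomy against sham, and the other 6 (Ndufa3, Ndufa9, Ndufb8, Ndufs4, Ndufs6 and Ndufs7) did not pass. Those 6 all had log2 changes above 0 (0.25, 0.53, 0.34, 0.09, 0.52 and 1.18). A link between Yy1 and these genes was not tested. The next smallest p was that of Esrrg (log2 change -0.86, adjusted p = 0.0723).

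Markers of other cells and of cardiomyocytes moved between the same groups. Of the 10 cardiomyocyte markers with an estimate in every library, Myl3 was higher with vagotomy than in sham, at 6514, 5818 and 10656 FPKM, against 1680, 1150 and 804 FPKM (limma adjusted p = 0.0144). The summed level of the 10, without Actc1 and Myh6, was 21838 to 47361 FPKM with vagotomy, 10809 to 16313 FPKM with resection alone and 14981 to 16903 FPKM in sham. This sum leans on Myl3 and, in vagotomy replicate 3, on Tnnt2 at 18822 FPKM. Against sham 7 of the 10 had a log2 change above 0, but only Myl3 passed. Myl2, Ryr2 and Pln were not higher (log2 changes -0.72, -0.10 and -0.0006). Of 7 macrophage markers, 5 were higher with vagotomy and 3 after resection alone than in sham, led with vagotomy by Cd14 (log2 change 3.80, adjusted p = 0.00489) and Lyz2 (2.29, adjusted p = 0.00853). Their sum was 196 to 231 FPKM with vagotomy, 150 to 277 FPKM with resection alone and 36.0 to 60.4 FPKM in sham. Of 5 neutrophil markers, 3 were higher with vagotomy than in sham, led by S100a9 (4.12, adjusted p = 0.00425) and Retnlg (3.49, adjusted p = 0.0114). S100a8 was higher after resection than in sham and lower with vagotomy than with resection alone. The 5 markers did not move 1 way there. Against resection alone 2 of the 5 had log2 changes above 0, S100a9 (1.49) and Retnlg (1.58), and neither passed. The neutrophil sum was 106 to 299.7 FPKM with vagotomy, 195 to 279.9 FPKM with resection alone and 17.9 to 40.9 FPKM in sham, so both lists separated sham from the other groups.

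Of 6 endothelial markers, Emcn was lower with vagotomy than in sham (log2 change -1.58, adjusted p = 0.0119) and than with resection alone, and Pecam1 came next (0.66, adjusted p = 0.0762). The endothelial sum was 289.6 to 341 FPKM with vagotomy, 303 to 340.1 FPKM with resection alone and 264 to 348.5 FPKM in sham. Of 7 fibroblast markers 0 passed, with the smallest p-values for Lum (-1.11, adjusted p = 0.0658) and Col1a2 (1.28, adjusted p = 0.068). Their sum was 1291 to 1442 FPKM with vagotomy, 1060.0 to 1491 FPKM with resection alone and 1182 to 1720.3 FPKM in sham, so these 2 sums overlapped between groups. Of 6 erythroid markers, Hba-a2 was higher with vagotomy than in sham (2.31, adjusted p = 0.0313) and Hbb-bt came next (-1.50, adjusted p = 0.166). The erythroid sum was 362 to 655 FPKM with vagotomy, 794 to 4352 FPKM with resection alone and 439 to 1355 FPKM in sham. The part of these cells in the complex I changes was not tested.

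**Figure D4:**
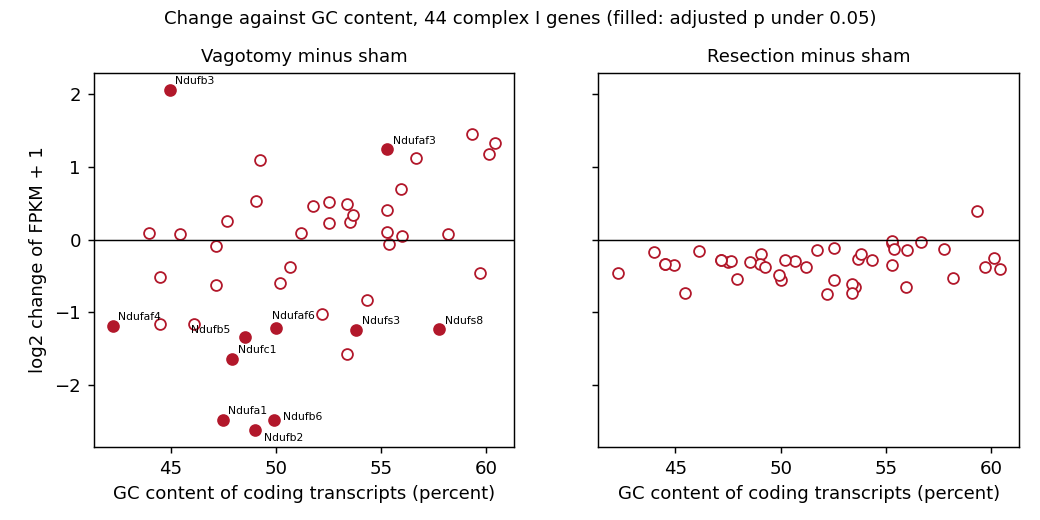
Each point is 1 of 44 of the 45 genes, with the GC content of its coding transcripts in percent on the horizontal axis and the log2 change of FPKM + 1 on the vertical axis, for resection with vagotomy minus sham (left) and resection minus sham (right); filled points passed an adjusted p of 0.05. After vagotomy the changes tend to be higher at higher GC content, with Ndufb3 high at 44.95% GC, and after resection alone nearly all points lie just below 0.

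Changes after vagotomy moved with the GC content of the transcripts. Over the 45 genes the Spearman rank correlation between GC content and the log2 change in vagotomy against sham was 0.39, and over 13118 tested genes with a GENCODE transcript it was 0.38. Against resection alone the values were 0.35 and 0.35, and for resection against sham 0.22 and 0.16. These are correlations across genes of the same libraries, and genes are not independent replicates. In vagotomy against sham the 15 genes of lowest GC content (42.3 to 49.1%) had a median change of -0.62, the 15 in the middle 0.09, and the 15 of highest GC content (53.9 to 60.4%) 0.41. Ndufb3, with 44.95% GC, was higher although it lies among the lowest. With the GC and length trend of each library removed, 14 of the 45 genes passed in vagotomy against sham, 3 higher and 11 lower, with a median of -0.15. Against resection alone 11 passed, 6 higher and 5 lower. Calls among all 13118 genes tested there were also up, to 2234 against sham (1184 higher, 1050 lower) and 1229 against resection alone (657 higher, 572 lower).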

How the data were processed

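Per the submitters' processing notes, TopHat2 2.0.9, Cufflinks 2.1.1 and Cuffdiff 2.1.1 were used on GRCm38. The matrix of 14479 genes holds deposited FPKM to which the authors had added 1, and this 1 was taken off first. For 2 comparisons, resection over sham and the vagotomy group over resection, the authors' deposited Cuffdiff tables hold FPKM by group with a p-value and a q-value.

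Of the matrix, 13249 genes averaged 1 FPKM or more and were analysed on the log2(FPKM + 1) scale (limma 3.58.1, R 4.3.3), in 1 model of 3 group means with a mean-variance trend and Benjamini-Hochberg adjustment. The procedure was tested on simulated data. Positions, transcript GC content and length came from GENCODE M21 (GRCm38), as medians over coding transcripts, and promoters from RefSeq (GRCm38.p6). All 45 deposited loci overlapped their GENCODE gene.

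The replicate numbers come from the sample titles, which do not say what they mark. The descriptions carry the same numbers for the first and the second libraries of each group, but for the third libraries they number the resection and sham ones differently, so the third pair rests on the titles alone. Deviations of resection and vagotomy libraries with the same title number correlated with r of 0.199, 0.142 and 0.117 in these same data. Results with the block are given gene by gene for that comparison only. The block itself was fitted in 1 model of all 9 libraries, sham included. Sham replicate 3 correlated with its same-numbered libraries with r of 0.0129 (resection) and -0.0193 (vagotomy). The members and gene lists were chosen with earlier results of these data known. Named with values in each library were the core subunits (1 gene is not reported here or drawn in the figures), the most and least abundant gene of each role group, the 5 smallest p-values of each comparison, every gene past the threshold, Ndufa4 and Ndufa4l2, and the 2 smallest p-values of the other lists. No read counts were used. Alternatives changed the pseudocount (0.1, 5), the filter (none, mean of 5 FPKM), the scaling (upper quartile, quantile), the moderation (without trend, robust), the libraries fitted (only the 6 compared, or without each library in turn) and the block, and 3 more were added after seeing the data.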

Additional observations from a re-analysis of the deposited data

How the results depend on the processing

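In resection against sham 0 of the 45 genes passed under any of the 22 alternatives, the replicate block among them, and the median ran from -0.44 to -0.15 when each library was left out in turn. In vagotomy against resection alone the count of 4 was 1 when the fit held only the 6 libraries compared, 13 with the replicate block, 11 with the GC and length trend removed, 9 with library weights, 1 with members at shared loci left out, and 1 to 7 when each library was left out in turn. In vagotomy against sham the count of 11 was 27 with library weights (12 higher, 15 lower), 7 with shared loci left out, 15 with the replicate block, and 1 to 13 when each library was left out. The same-numbered sham libraries did not all correlate with the others (r of 0.498, 0.197 and 0.0129 with resection, 0.186, 0.17 and -0.0193 with vagotomy). By limma's F-test for any difference among the 3 groups, 5 genes passed (11.1%, against 5.89% of all tested genes), 15 with the replicate block, 14 with the GC and length trend removed, 25 with library weights, 2 with shared loci left out, and 1 to 11 when each library was left out. Over all tested genes the F-test called 781, 1632 with the block, 1694 with the trend removed and 5511 with weights. With a library left out it called 112 to 1087. Median changes ran from 0.10 to 0.28 in vagotomy against resection alone and from -0.09 to 0.10 in vagotomy against sham when each library was left out. Among the genes named, Ndufv2 changed sign in vagotomy against resection alone, to 0.038 with library weights. The cause of these shifts was not tested, except that leaving out members leaves fewer genes to count. The GC and length trend, shared loci and library weights were added after seeing the data. Over all tested genes, vagotomy against resection alone called 466 genes, 29 with only the 6 libraries, 1277 with the block, 1229 with the GC and length trend removed, 887 with weights and 42 to 591 when each library was left out. Vagotomy against sham called 1334, 2413 with the block, 2234 with the trend removed, 6389 with weights and 100 to 1701 with a library left out. Resection against sham called 39, 66 with a pseudocount of 0.1, 23 with a pseudocount of 5, 13 with only the 6 libraries, 74 with robust moderation, 92 with the trend removed, 417 with weights and 11 to 59 with a library left out. The depth behind the FPKM values is unknown, so counting error could not be given.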
